A study of Mus musculus with 12 samples.

Results

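The T helper effector cytokines examined here were 10 genes taken as a list by symbol, and all 10 were found by Entrez identifier among the 17523 genes of the deposited table. They are *Ifng*, *Tnf*, *Il2*, *Il21*, *Il10*, *Il4*, *Il5*, *Il13*, *Il17a* and *Il17f*. Of these, 8 had at least 5 normalized counts in at least 3 of the 12 libraries and were tested, while *Il5* and *Il17a* did not reach that level. RNA came from CD4+ T cells of the spleens of Gr/fr mice on the C57BL/6 strain, sorted by surface markers into naive (CD44-) and effector memory (TEM, CD44hi) cells, which were split further by YFP. This gave 4 groups of 3 libraries, numbered 1 to 3 in the labels. All groups carried the same alleles. The *Csf2* allele of these mice also encodes Cre recombinase and a blue fluorescent protein, and an eYFP gene at Rosa26 is switched on for good once Cre has excised its stop cassette. YFP therefore labels cells with current or past transcription of GM-CSF. The fate label thus depends on a *Csf2*-driven Cre and does not tell present from past expression. No stimulation before RNA extraction is described for these libraries. The study describes the mice as naive, without the autoimmune disease that it induced in others. Its methods describe the Gr/fr mice whose CD4+ subsets were sorted as a few months old.

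T helper cells are grouped by the cytokines they secrete. Th1 cells make IFN-γ, Th2 cells make IL-4, IL-5 and IL-13 and Th17 cells make IL-17A and IL-17F, while IL-21 is the hallmark of follicular helper cells, and IL-2, TNF and IL-10 are shared by several subsets. Naive cells hold these loci mostly silent, and antigen-experienced cells keep them accessible for rapid transcription after stimulation through the T cell receptor. Several of the genes sit next to each other: on chromosome 11, *Il4* (53612460 to 53618665) lies 12.7 kb from *Il13* (53631323 to 53634702), which lies 86.1 kb from *Il5* (53720794 to 53725103). On chromosome 1, 42.6 kb separate *Il17a* (20730905 to 20734496) from *Il17f* (20777146 to 20785274). On chromosome 3, *Il2* (37120713 to 37125954) and *Il21* (37222759 to 37232636) are 96.8 kb apart. *Ifng* lies on chromosome 10 (118441046 to 118445894), *Tnf* on chromosome 17 (35199367 to 35202007) and *Il10* on chromosome 1 (131019845 to 131024970). Coordinates refer to GRCm38.p6 (mm10) as annotated by RefSeq. *Il21* overlaps *Gm36168* there, so that reads of these genes may not have been told apart, and no other member overlaps an annotated gene.

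The 250 bases upstream of the annotated start are shown for the members that had over 20 normalized counts in every TEM library, because these members were high in TEM and low or lower in naive cells together. *Il10* meets the same condition and has no entry among the promoter sequences used here. Each sequence is written 5′ to 3′ on the strand of its gene and ends just before the start, and *Il4* has another annotated start that is not shown. Capitals mark TATAAA on the gene's strand (the TATA box core), TGANTCA (the AP-1 motif) and GGAAA or its complement TTTCC (the core bound by NFAT), none of which overlap here.
Ifng, chr10:118440796-118441045, strand plus: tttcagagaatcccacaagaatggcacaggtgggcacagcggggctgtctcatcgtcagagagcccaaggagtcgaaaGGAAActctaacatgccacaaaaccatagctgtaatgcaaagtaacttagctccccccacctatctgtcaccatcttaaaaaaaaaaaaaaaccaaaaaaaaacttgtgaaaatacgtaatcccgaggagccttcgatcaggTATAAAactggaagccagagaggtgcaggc
Tnf, chr17:35202008-35202257, strand minus: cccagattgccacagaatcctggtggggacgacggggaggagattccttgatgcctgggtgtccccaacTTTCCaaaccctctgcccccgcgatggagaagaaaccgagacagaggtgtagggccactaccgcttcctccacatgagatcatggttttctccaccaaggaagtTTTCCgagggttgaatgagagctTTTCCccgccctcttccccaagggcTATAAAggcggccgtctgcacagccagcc
Il2, chr3:37125955-37126204, strand minus: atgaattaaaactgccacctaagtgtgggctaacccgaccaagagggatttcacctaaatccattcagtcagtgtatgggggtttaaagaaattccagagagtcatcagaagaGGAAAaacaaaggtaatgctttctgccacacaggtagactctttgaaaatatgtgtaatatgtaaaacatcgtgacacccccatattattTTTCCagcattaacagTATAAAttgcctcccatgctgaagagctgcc
Il21, chr3:37232637-37232886, strand minus: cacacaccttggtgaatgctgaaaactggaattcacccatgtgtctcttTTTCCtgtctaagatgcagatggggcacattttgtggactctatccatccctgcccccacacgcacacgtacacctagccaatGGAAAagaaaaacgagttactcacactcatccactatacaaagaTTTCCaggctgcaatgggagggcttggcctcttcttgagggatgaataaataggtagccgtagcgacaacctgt
Il4, chr11:53618666-53618915, strand minus: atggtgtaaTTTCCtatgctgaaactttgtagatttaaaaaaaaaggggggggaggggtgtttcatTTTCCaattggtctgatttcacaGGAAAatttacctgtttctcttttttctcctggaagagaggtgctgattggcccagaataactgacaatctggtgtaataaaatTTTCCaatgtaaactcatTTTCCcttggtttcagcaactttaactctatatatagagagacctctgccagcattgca
TATAAA was found upstream of 6 of the 9 members with an entry, against 7.59% of the 32851 windows of the same length in all genes. Its first base lay at -30 from the start in *Ifng*, at -31 in *Il2* and *Il17a*, and at -29 in *Tnf*, *Il13* and *Il17f*. A first base between -40 and -20 was thus found in 6 of 9 members and in 1.99% of all windows. GGAAA on either strand was found in 8 of 9 members, but also in 55.6% of all windows, with 5 copies in *Il4*, 3 each in *Tnf* and *Il21*, 2 in *Il2* and 1 in *Ifng*. TGANTCA, the form of the AP-1 motif searched, with any base at N, was found in 1 of 9 members and in 6.75% of all windows. That member was *Il17a*, where the match read TGAATCA. Windows of neighbouring or related genes are not independent, and a match of letters is not a bound site.

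Libraries held between 40974124 and 57822269 reads on genes. The sorted cells carried the transcripts of their labels: *Cd4* had 36078 to 67471 normalized counts in every library, and *Cd44*, one of the genes behind the sort, had 2334 to 3372 in naive and 21778 to 29383 in TEM cells. Transcripts of other cell types were present at unlike levels in the TEM fractions, which was not tested for these sums, and in bulk RNA fewer cells of a type and less RNA per cell cannot be told apart. All 5 listed genes of conventional dendritic cells were measured, and together they had 41413 to 83421 normalized counts in YFP- TEM and 2337 to 5897 in YFP+ TEM libraries. The 5 genes of plasmacytoid dendritic cells summed to 7321 to 13694 and 3199 to 5883, and the 5 myeloid genes to 4114 to 7184 and 1489 to 2899. Within these lists *Ccr9* (497 to 1218 in YFP- and 1096 to 3405 in YFP+ TEM cells), *Cd14* (21.4 to 36.3 and 97.9 to 239) and *S100a8* (0 to 1.48 and 7.25 to 48.5) went the other way. The opposite order was seen for the 3 genes of invariant NKT cells, with 287 to 519 in YFP- and 2860.2 to 7395 in YFP+ TEM cells, and for the 4 genes of γδ T cells, with 382 to 497 and 1560.6 to 3004. In the γδ list the sum followed *Tcrg-C1* and *Tcrg-C2*, while *Trdc*, the constant gene of the δ chain, had 214 to 358 in YFP- and 189 to 258 in YFP+ TEM cells. The 4 regulatory T cell genes summed to 43713 to 60847 in YFP- and 37048 to 41236 in YFP+ TEM cells, the 3 NK genes in the table to 602 to 786 and 1336 to 2032, the 2 CD8 T cell genes to 685 to 1490.3 and 187 to 373, and the 5 B cell genes to 405 to 496 and 321 to 834. In the regulatory T cell list *Foxp3* was higher in YFP- TEM cells (11161 to 19208 against 6198 to 10484). There *Ikzf2* and *Ctla4* overlapped, and *Il2ra* had the higher range in YFP+ TEM cells (3824 to 6136 and 5136 to 9195). Of the NK genes *Klrb1c* had 149 to 160 in YFP- and 870 to 1640 in YFP+ TEM cells. *Eomes* overlapped, with the lower range in YFP+ TEM cells (453 to 634 and 336 to 460). In YFP- TEM cells *Sox13* and *Ncr1*, of the γδ T and NK lists, were at 0 in all libraries. *Cpa3*, the 1 gene of 4 on the basophil and mast cell list that was in the table, was at 0 in YFP- and at 40.4 to 79.8 in YFP+ TEM cells.

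In naive cells *Tnf* was the only member well above the floor, which was set at 3 reads in every library of a group. TNF is a proinflammatory cytokine made by many leukocytes. Its transcript had 281, 421 and 447 normalized counts in YFP- naive replicates 1 to 3 and 163, 305 and 459 in YFP+ naive replicates 1 to 3. The 2 naive groups overlapped. The remaining 9 members had 0 to 13.8 normalized counts in each naive library. *Il4*, *Il13* and *Il17a* had no read in any YFP- naive library, and *Il10* and *Il13* had none in any YFP+ naive library, and a count of 0 in a library allows up to 3 reads. Of the 29 reads of *Il21* in naive cells, 25 came from the 2 libraries numbered 2. Per kilobase of the longest transcript, *Tnf* made up 91.6 to 97.7% of the summed level of the 10 members in YFP- naive and 86.4 to 99.2% in YFP+ naive libraries.

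**Figure D1:**
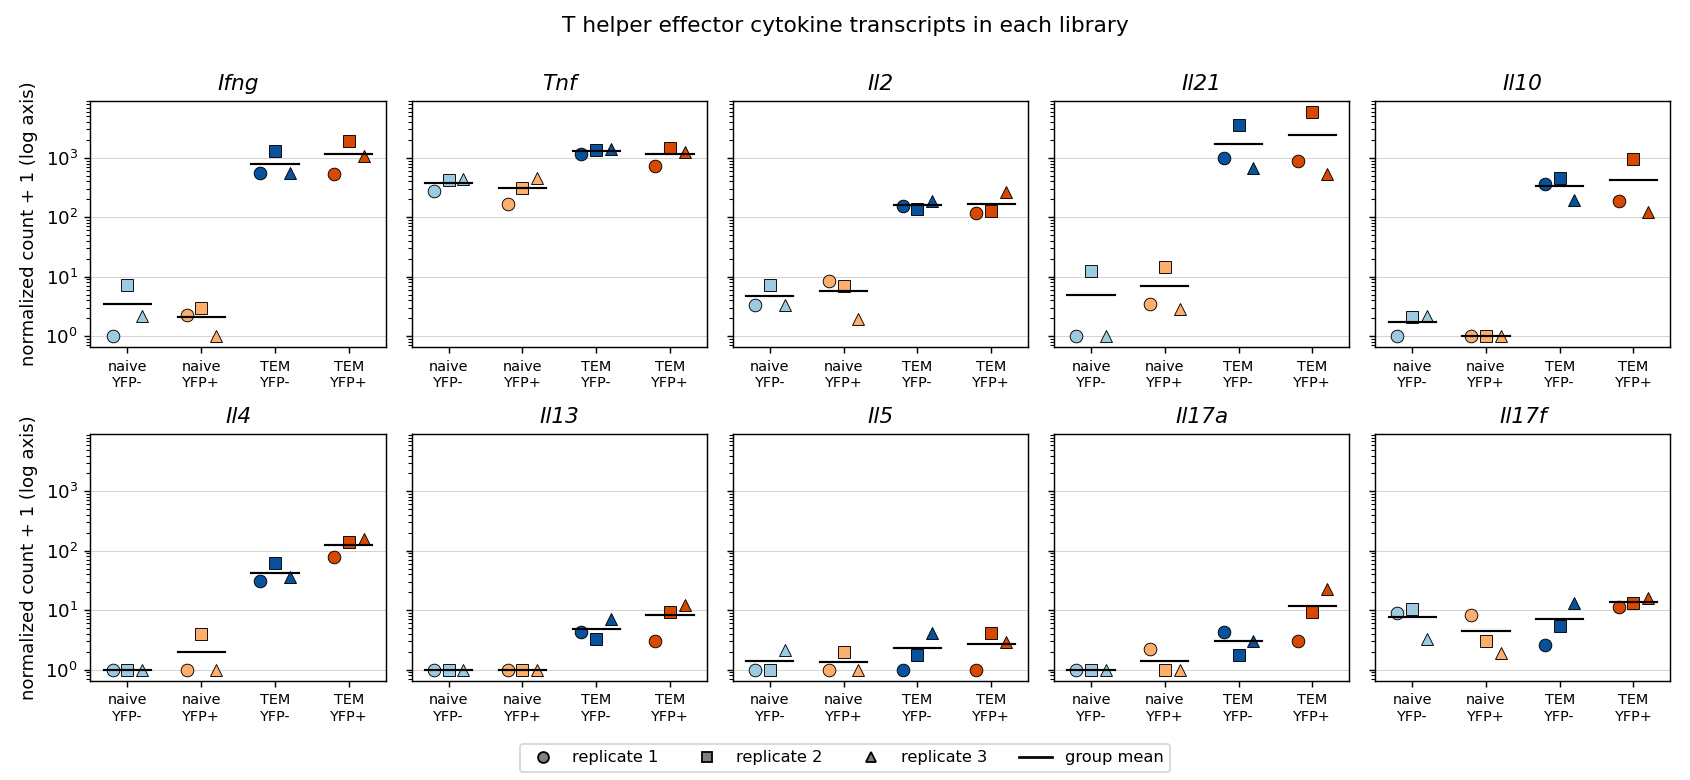
Normalized counts plus 1 (log axis) of each member in the 12 libraries, by group, with a marker shape for each replicate number and a bar at the group mean. *Tnf* is the 1 member above 100 normalized counts in naive cells, 6 members lie above 20 in every TEM library, and *Il5* stays at 3.11 or below throughout.

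Between YFP+ and YFP- naive cells 0 of 8 members passed the test (limma, adjusted p of 0.05 or less), where 0.00642% of the 15587 tested genes did. An unadjusted p under 0.05 was reached by 0 members, and edgeR and DESeq2 each called 0. The log2 fold change of *Tnf* was -0.40 (SE 0.34), with a 95% interval from -1.14 to 0.34, so a fall of more than 1 on the log2 scale lay within the interval. For the other 7 tested members the reads in naive cells were too few for a difference of this kind to be detectable at this depth.

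From naive to TEM cells 7 of the 8 tested members rose in YFP- cells and 7 of 8 in YFP+ cells. Among all tested genes, 29.9% were called higher in TEM in YFP- cells and 24.7% in YFP+ cells. The median log2 fold change of the members was 5.28 in YFP- cells and 5.64 in YFP+ cells, beside 0.05 and 0.03 over all tested genes. With the members at 0 in every naive library set at their lower bound it was 4.42 and 5.64. *Ifng*, *Il4*, *Il10*, *Il13* and *Il21* reached the filter on low values only through TEM libraries, so their calls follow in part from the filter and are given as a description only. *Il2*, *Il17f* and *Tnf* would have passed on naive libraries alone. Both comparisons share the fit but no library.

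*Tnf* is the member whose naive level allows a plain fold. It had 1154, 1337 and 1418 normalized counts in YFP- TEM replicates 1 to 3 and 730.0, 1460.2 and 1268 in YFP+ TEM replicates 1 to 3. All TEM libraries lay above all naive libraries. The mean was 3.40 times the naive mean in YFP- cells (log2 fold change 1.79, SE 0.34, adjusted p = 8.2e-04, limma) and 3.73 times in YFP+ cells (log2 fold change 1.96, SE 0.34, adjusted p = 5.6e-04, limma).

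*Il2*, the growth factor that T cells secrete on activation, had 157, 136 and 184 normalized counts in YFP- and 118, 125 and 263 in YFP+ TEM replicates, against at most 7.42 in any naive library. The ratio of summed reads in YFP- cells was 41.9 (95% counting interval from 22.6 to 87.8) and the ratio of means in YFP+ cells was 35.6. *Ifng*, the Th1 cytokine, had 545, 1291 and 561 normalized counts in YFP- and 536, 1930.3 and 1073 in YFP+ TEM replicates. Its naive reads numbered 7 and 3, which gave ratios of 319 (counting interval 155 to 794) and 1133 (387 to 5495). These intervals cover the counting of reads only.

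The product of *Il21* helps B cells in germinal centres. The gene had 1001, 3542 and 661 normalized counts in YFP- TEM replicates 1 to 3 and 882, 5965 and 541 in YFP+ TEM replicates 1 to 3. Replicate 2 was the highest in both fractions by a wide gap. The means were 446 and 408 times those in naive cells. In YFP- naive cells all 11 reads came from replicate 2, and without that library the fitted log2 fold change went from 9.16 to 10.38. Leaving out 1 library at a time gave 8.45 to 10.38 in YFP- cells, lowest without TEM replicate 2. In YFP+ cells the value of 8.07 became 7.03 without TEM replicate 2 and 8.81 without naive replicate 2, the ends of its range.

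*Il10*, an inhibitory cytokine of regulatory and effector T cells, had 364, 454 and 193 normalized counts in YFP- TEM cells. In YFP+ TEM cells it had 185, 943 and 123. All lay far above naive cells. In YFP- cells, where the naive libraries held 2 reads in all, the ratio was 470.1 with a wide counting interval (130 to 3886), and in YFP+ cells, with 0 naive reads, the level was at least 132-fold higher against 3 reads per library. The regulatory T cell genes given above for TEM cells summed to 3334 to 7150 normalized counts in naive libraries, and their part in the *Il10* level was not tested.

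Of the Th2 genes, *Il4* had 30.3, 60.0 and 34.6 normalized counts in YFP- and 78.9, 140 and 154 in YFP+ TEM replicates. It was at least 12.4-fold higher than the floor of naive cells in YFP- cells, and in YFP+ cells, where naive cells had 3 reads, the ratio was 121 (counting interval 40.9 to 587). *Il13* had 3.28, 2.22 and 6.11 normalized counts in YFP- and 2.02, 8.28 and 11.4 in YFP+ TEM cells, at least 1.15-fold and 2.30-fold above the floor. These values rest on 13 and 22 reads, and 3 TEM libraries alone carried *Il13* past the filter. *Il5* had 1 read in each naive group and 4 and 5 reads in YFP- and YFP+ TEM cells, at or below the floor in all groups.

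The Th17 genes were near the limit of detection. *Il17f* had 8.06, 9.55 and 2.30 normalized counts in YFP- naive cells and 1.64, 4.45 and 12.2 in YFP- TEM cells, which overlapped, with a log2 fold change of -0.24 (95% interval -1.83 to 1.34). In YFP+ cells it had 7.42, 1.97 and 0.930 in naive and 10.1, 12.4 and 15.2 in TEM cells. These groups did not overlap, but the adjusted p was 0.0563 (limma, log2 fold change 1.88, SE 0.73) and did not pass. Without YFP+ naive replicate 1 it was 2.49 with an adjusted p of 0.0220, and with a prior count of 5 the adjusted p was 0.0480. *Il17a* had 3.28, 0.741 and 2.04 normalized counts in YFP- and 2.02, 8.28 and 21.9 in YFP+ TEM cells, and 1 read over the 6 naive libraries. The members passing or not passing here were as many without the libraries numbered 2, with 7 of 8 called in each fraction.

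Levels of different genes were compared per kilobase of the longest annotated transcript. In YFP- TEM cells the order of means was *Tnf* (795 normalized counts per kb), *Ifng* (662), *Il21* (565), *Il10* (257), *Il2* (139), *Il4* (68.9), *Il17f* (5.18), *Il13* (3.21), *Il17a* (1.72) and *Il5* (0.823). Neighbours in this order overlapped between libraries except *Il2* over *Il4* and *Il4* over *Il17f*. In YFP+ TEM cells the order was *Ifng* (977), *Il21* (802), *Tnf* (703), *Il10* (318), *Il4* (205), *Il2* (148), *Il17f* (10.7), *Il17a* (9.16), *Il13* (6.01) and *Il5* (1.09). There the only neighbours without overlap were *Il2* over *Il17f*. The same 6 genes stood above the same 4 in both fractions. The levels depend on the length used, since the reads may come from shorter transcripts, and with the union of exons *Tnf* came before *Il21* and *Il2* before *Il4* in YFP+ TEM cells, as did *Il17a* before *Il17f*, and *Il13* before *Il17f* in YFP- TEM cells.

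**Figure D2:**
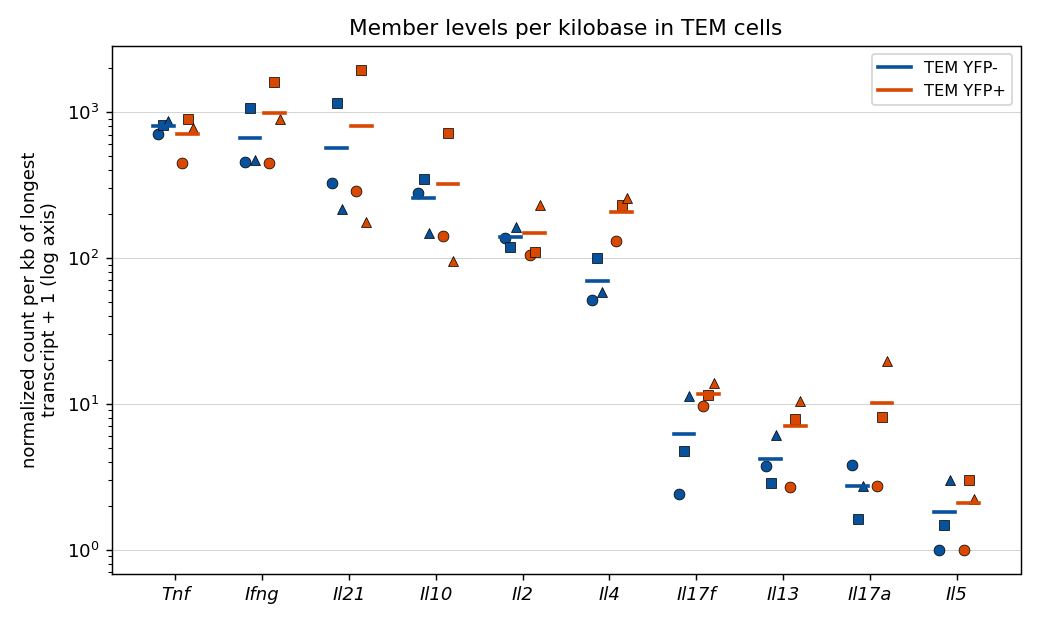
Normalized counts per kilobase of the longest transcript, plus 1 (log axis), of the 10 members in YFP- and YFP+ TEM libraries, with a bar at the mean and marker shapes for replicates 1 (circle), 2 (square) and 3 (triangle). The 6 genes on the left lie above 50 in every library and the 4 on the right below 20.

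Between YFP+ and YFP- TEM cells, the comparison that sets cells with a history of GM-CSF expression against those without, 0 of 8 members passed the test, where 6.97% of all tested genes did. An unadjusted p under 0.05 was reached by 1 member, *Il4*. DESeq2 on the recovered reads called 1 member, *Il4*, and edgeR called 0. The median log2 fold change of the members was 0.29, beside -0.01 over all tested genes. The groups did not overlap in 1 of 10 members, again *Il4*, and in 25.0% of all tested genes. As a check of the sort, *Csf2* itself had 1.75 ± 0.896 normalized counts in YFP- and 116 ± 52.0 in YFP+ TEM cells (mean ± SD, n = 3).

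**Figure D3:**
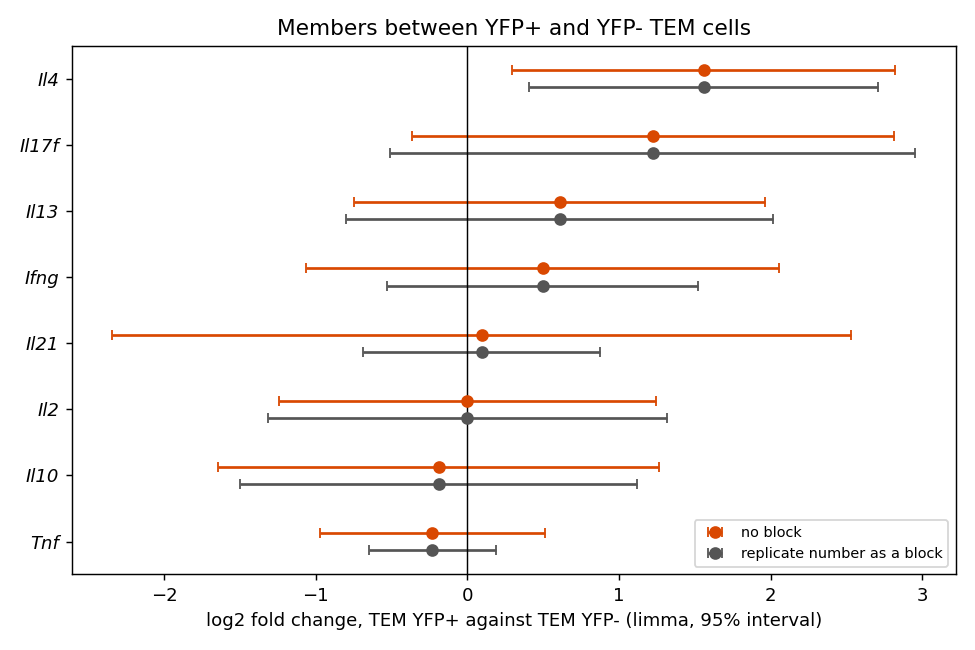
Log2 fold change of the 8 tested members between YFP+ and YFP- TEM cells with the 95% interval from limma, without and with the replicate number as a block. The interval of *Il4* lies above 0 in both fits (0.30 to 2.82 and 0.41 to 2.71), that of every other member spans 0, and the interval of *Il21* is the one that narrows most with the block.

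In *Il4* the YFP+ library lay above the YFP- library of the same replicate number by 2.60, 2.33 and 4.45 times. The means were 41.7 ± 16.0 and 124 ± 39.9 normalized counts (SD, n = 3) and the log2 fold change was 1.56 (SE 0.58, 95% interval 0.30 to 2.82, adjusted p = 0.160, limma). The adjusted p was 0.0324 with DESeq2, 0.0174 with a prior count of 5, 0.0167 with quantile normalization and 0.0823 with the replicate number as a block. It was 0.171 to 0.421 when 1 TEM library was left out, and over all alternatives it ranged from 0.0167 to 0.829. The direction was the same in all of these fits. The invariant NKT genes *Trav11* (88.9 to 126 normalized counts in YFP- and 937 to 2303 in YFP+ TEM cells) and *Zbtb16* (108 to 260.0 and 884 to 2655) and the mast cell and basophil gene *Cpa3* moved the same way as *Il4*. These cell types are known to transcribe *Il4* as well, and their part in its level was not tested. A sort for CD4+ T cells should leave out mast cells and basophils, and *Cpa3* was the 1 gene of 4 on their list in the table.

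The other Th2 and Th17 members had higher means in YFP+ TEM cells without passing. *Il13* had a log2 fold change of 0.61 (95% interval -0.75 to 1.97) and *Il17f* of 1.22 (95% interval -0.37 to 2.81). *Il17f* lay higher in the YFP+ library of each replicate number, by 6.16, 2.79 and 1.24 times, on at most 16 reads a library. *Il17a*, fitted without the filter on low values, had a log2 fold change of 1.61 (95% interval 0.09 to 3.13) with an adjusted p of 0.268 (limma), and its ratios by replicate number were 0.616, 11.2 and 10.7. The ratio of replicate 1 thus went the other way, on 2 and 4 reads. Of the γδ T cell list, *Tcrg-C1* had 74.1 to 98.4 normalized counts in YFP- and 632 to 1113 in YFP+ TEM cells and *Tcrg-C2* 60.0 to 86.1 and 670.0 to 1670.2, whereas *Trdc* overlapped and had the lower range in YFP+ cells. The part of γδ T cells in the values of *Il17a* and *Il17f* was not tested.

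The most abundant members showed no difference that passed the test. *Ifng* had 799 ± 426 and 1179.8 ± 703 normalized counts in YFP- and YFP+ TEM cells, with ratios by replicate number of 0.982, 1.50 and 1.91 and a log2 fold change of 0.50 (95% interval -1.06 to 2.05). *Tnf* had 1303 ± 135 and 1153 ± 379, and its log2 fold change of -0.23 had an interval from -0.97 to 0.51. With the block the interval of *Tnf* ran from -0.65 to 0.19, so that a difference of more than 1 on the log2 scale lay outside both intervals. *Il2* had 159 ± 24.5 and 169 ± 81.8, with a log2 fold change of -0.0013 and an interval from -1.25 to 1.24.

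*Il10* had 337 ± 133 normalized counts in YFP- and 417 ± 457 in YFP+ TEM cells, a higher mean beside a log2 fold change of -0.19 (95% interval -1.64 to 1.27). Its ratio was 2.08 in replicate 2 and 0.508 and 0.637 in replicates 1 and 3. *Il21* had 1735 ± 1574 and 2462 ± 3038, with ratios of 0.880, 1.68 and 0.818. Its log2 fold change of 0.09 had an interval from -2.34 to 2.53 without the block and from -0.69 to 0.87 with it. The dendritic, myeloid and regulatory T cell lists had higher sums in YFP- TEM cells, with the exceptions given above. They name cells that can transcribe *Tnf* or *Il10*, and the part of these cells in the levels was not tested.

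The interaction, which asks whether the YFP difference in TEM cells exceeded that in naive cells, was passed by 0 of 8 members, where 3.55% of all tested genes passed. An unadjusted p under 0.05 was reached by 0 members, and edgeR and DESeq2 each called 0. For *Tnf* the difference between the log2 fold changes was 0.17 (95% interval -0.88 to 1.22).

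The members differed in how much they varied between replicates. In YFP- TEM cells the SD of log2 values was 1.26 for *Il21*, larger than in 97.6% of all tested genes, 0.71 for *Ifng* (90.1%) and 0.64 for *Il10* (88.2%), but 0.15 for *Tnf* (47.1%) and 0.22 for *Il2* (60.0%). In YFP+ TEM cells it was 1.83 for *Il21* (98.8%), 1.55 for *Il10* (97.8%) and 0.92 for *Ifng* (91.6%). *Il2* (0.64, 84.1%) and *Tnf* (0.53, 79.3%) were also above most genes there. On few reads, *Il17f* was at 1.16 (96.9%) in YFP- and 0.27 (60.2%) in YFP+ TEM cells. In *Ifng*, *Il10* and *Il21* the highest library was replicate 2 in both fractions, while in *Il2*, *Il13* and *Il17f* it was replicate 3 in both. Over all tested genes replicate 2 was the highest in both fractions in 15.2%, replicate 3 in 18.0% and replicate 1 in 13.2%. In *Il21* replicate 2 stood at 4.26 times the mean of the other YFP- TEM libraries and at 8.39 times the mean of the other YFP+ ones. The same ratios were 2.33 and 2.40 for *Ifng* and 1.63 and 6.13 for *Il10*. For *Il2* they were 0.795 and 0.657, and for *Tnf* 1.04 and 1.46.

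Genes of T cell receptor signalling and of cytokine gene control were set beside this pattern after it had been seen, so it is described without a test. Of the 13 immediate early genes, which respond within minutes to receptor stimulation and to cell handling, 7 were highest in replicate 2 in both TEM fractions. *Fos* was at 1.63 and 2.88 times the mean of the other libraries and *Fosb* at 1.81 and 3.70 times. In YFP- and YFP+ naive cells replicate 2 was also high, at 2.10 and 2.11 times for *Fos* and 3.02 and 2.49 times for *Fosb*. For *Egr1*, also highest in replicate 2 in both TEM fractions, the naive ratios were 0.840 and 0.884. Other genes of this list went the other way. *Fosl2* (0.839 and 0.447), *Nr4a3* (0.715 and 0.754) and *Myc* (0.846 and 0.816) were below 1 in YFP- and YFP+ TEM cells. Of 20 transcription factors 7 were highest in replicate 2 in both TEM fractions, beside 15.2% of all tested genes. Among them were *Bcl6*, the factor that defines follicular helper cells (1.45 and 2.06 times), *Irf4* (1.60 and 2.15 times), *Maf*, an activator of *Il10* and *Il21* (1.42 and 1.86 times), and *Nfil3* (1.79 and 2.39 times). In YFP- and YFP+ naive cells these ratios were 2.31 and 2.55 for *Irf4* and 1.19 and 1.56 for *Maf*. They were 1.04 and 1.07 for *Bcl6* and 0.958 and 0.927 for *Nfil3*. As many factors, 7 of 20, were highest in replicate 1 in both TEM fractions, and 1 was in replicate 3. Of 16 receptor chains 0 were highest in replicate 2 in both TEM fractions. Whether the immediate early genes or the factors bear on the cytokine levels was not tested. Without the libraries numbered 2, 0 of 8 members passed between YFP+ and YFP- TEM cells, and the log2 fold changes were -0.24 for *Il21*, -0.81 for *Il10* and 0.45 for *Ifng*.

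**Figure D4:**
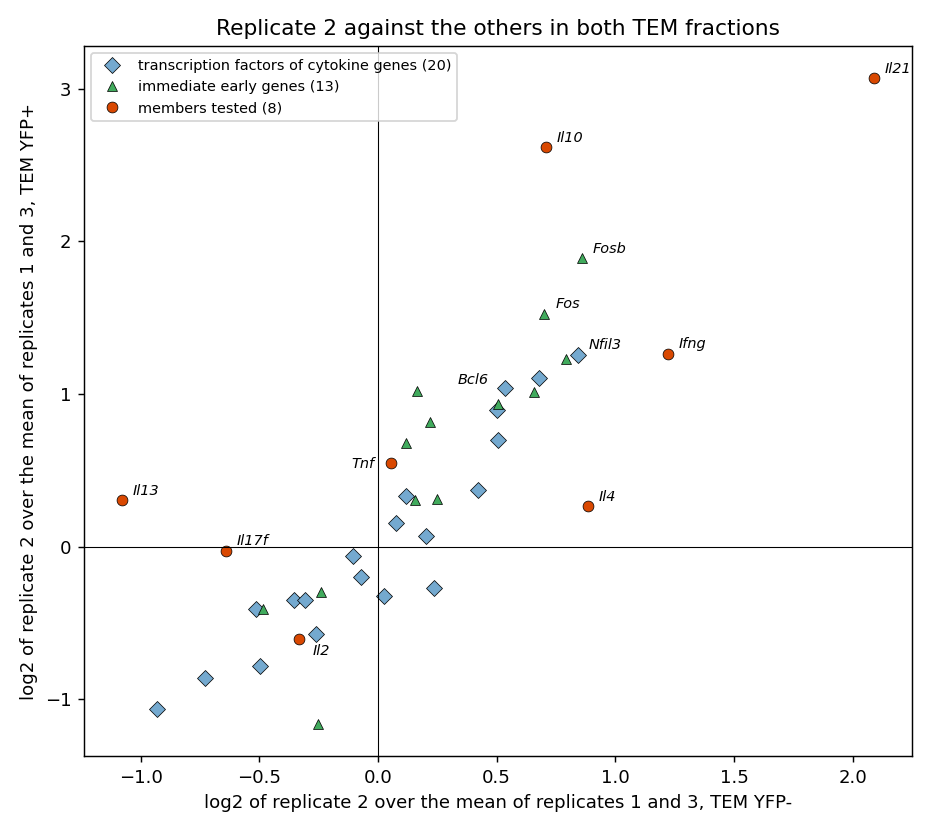
Log2 ratio of replicate 2 to the mean of replicates 1 and 3 in YFP- TEM cells (horizontal) and YFP+ TEM cells (vertical) for the 8 tested members, 13 immediate early genes and 20 transcription factors. *Il21*, *Il10* and *Ifng* lie in the upper right with *Fos*, *Fosb*, *Nfil3* and *Bcl6*, and *Il2* lies in the lower left. Unlabelled points of both gene lists also lie in the lower left, among them *Fosl2*, *Nr4a3* and *Myc*.

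Other genes of the cytokine network were read from lists, beside 359 genes higher and 728 lower in YFP+ TEM cells among all 15587 tested (6.97% called) and a median log2 fold change of -0.01 over all of them. Of 19 other T cell cytokines 15 were in the table, and *Il3*, *Il9*, *Il24* and *Il31* were not. In TEM cells 3 of the 14 tested were higher in YFP+ cells and 0 lower, with a median log2 fold change of 0.08. They were *Csf2* (values above), *Fasl*, the death ligand (528 ± 60.8 and 2028 ± 804 normalized counts, log2 fold change 1.86, SE 0.25, adjusted p = 7.2e-04, limma), and *Tnfsf10*, which encodes TRAIL (2864 ± 201 and 4096 ± 721, log2 fold change 0.50, SE 0.13, adjusted p = 0.0383, limma). *Csf2* drives the label by which the fractions were sorted, so its call is a check of the sort and no separate result. Without YFP- replicate 1, 2 or 3 or YFP+ replicate 1 or 3 *Tnfsf10* had an adjusted p of 0.147, 0.0931, 0.0770, 0.0855 and 0.160. With the limma block, edgeR and DESeq2 its adjusted p was 0.00313, 0.0324 and 0.00687. With the replicate block 4 were higher, *Ltb* being added (adjusted p = 0.0386), and without the libraries numbered 2 the count was 2.

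Of 16 tested receptor chains for the members 1 was higher and 4 were lower in YFP+ TEM cells, beside 6.97% of all genes called in either direction, with a median log2 fold change of 0.16. *Il2rb*, the β chain through which IL-2 signals, rose from 33352 ± 4457 to 65830 ± 16373 normalized counts (log2 fold change 0.96, SE 0.16, adjusted p = 0.00268, limma). *Ifngr2*, the signalling chain of the IFN-γ receptor, fell from 1382 ± 448 to 505 ± 145 (log2 fold change -1.44, SE 0.27, adjusted p = 0.00521, limma). *Csf2rb*, the β chain shared by the receptors of IL-5 and GM-CSF, fell from 3752 ± 1376 to 289.5 ± 120 (log2 fold change -3.73, SE 0.68, adjusted p = 0.00442, limma). *Il10ra*, the ligand-binding chain of the IL-10 receptor, fell from 10368 ± 1496 to 7119 ± 618 (log2 fold change -0.54, SE 0.12, adjusted p = 0.0158, limma). Without YFP- replicate 1 or 3 or YFP+ replicate 3 its adjusted p was 0.0779, 0.0632 and 0.0796. With the limma block, edgeR and DESeq2 it was 0.00569, 0.0220 and 8.8e-04. The remaining chain that fell, *Il13ra1*, named after its values were seen, changed by -2.46 on the log2 scale (SE 0.59, adjusted p = 0.0237, limma), and without YFP- replicate 1, 2 or 3 or YFP+ replicate 1 or 3 its adjusted p was 0.0602, 0.0523, 0.124, 0.0858 and 0.0973. With the limma block, edgeR and DESeq2 it was 0.00762, 0.0181 and 1.6e-04. Dendritic and myeloid cells, whose summed genes were higher in YFP- TEM cells, also transcribe *Csf2rb*, *Ifngr2* and *Il13ra1*, and their part was not tested. The summed invariant NKT and NK genes were higher in YFP+ TEM cells. The part of such cells in the levels of *Il2rb* and *Fasl* was not tested either. With the replicate number as a block 4 chains were called higher, the others being *Il2ra*, *Il2rg* and *Ifngr1* with adjusted p of 0.00293, 0.0379 and 0.0461. The count without the libraries numbered 2 was again 1 higher and 4 lower.

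Of 20 transcription factors of cytokine genes 2 were higher and 1 was lower in YFP+ TEM cells, beside the same 6.97% of all genes, with a median log2 fold change of 0.10. *Ikzf3*, which encodes Aiolos, rose from 12802 ± 462 to 17821 ± 2201 normalized counts (log2 fold change 0.47, SE 0.11, adjusted p = 0.0191, limma). The adjusted p was 0.0809, 0.0523, 0.0589, 0.0890 and 0.0889 without YFP- replicate 1, 2 or 3 or YFP+ replicate 1 or 3. With the limma block, edgeR and DESeq2 it was 0.0100, 0.00998 and 7.5e-04. *Tbx21*, which encodes T-bet, the Th1 factor that activates *Ifng*, was 0.68 higher on the log2 scale (SE 0.19, adjusted p = 0.0477, limma). This p was 0.152, 0.0765 and 0.210 without YFP- replicates 1, 2 and 3 and 0.150, 0.0617 and 0.207 without YFP+ replicates 1, 2 and 3. With the limma block, edgeR and DESeq2 it was 0.0205, 0.00630 and 4.0e-05. The part of the cells named by the invariant NKT and NK lists in the *Tbx21* level was not tested. *Hlx*, a homeobox factor of Th1 and of myeloid cells, fell from 428 ± 263 to 54.4 ± 18.5 normalized counts (log2 fold change -2.85, SE 0.67, adjusted p = 0.0209, limma). Without YFP- replicate 3 or YFP+ replicate 1 or 2 its adjusted p was 0.119, 0.0624 and 0.0725. With the limma block, edgeR and DESeq2 it was 0.00939, 0.0126 and 3.7e-05. *Gata3*, the Th2 factor that acts on *Il4*, had a log2 fold change of 0.11 (SE 0.18) and did not pass (adjusted p = 0.861, limma). The block called 4 factors higher and 2 lower, adding *Prdm1*, *Stat4* and *Eomes* (adjusted p = 0.00400, 0.0405 and 0.0472). Without the libraries numbered 2 the counts were 1 higher and 0 lower.

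Of 13 immediate early genes 0 passed between YFP+ and YFP- TEM cells (limma, edgeR and DESeq2), with a median log2 fold change of -0.0033 and an unadjusted p under 0.05 in 0 genes, and *Nr4a1* alone was called lower with the block (adjusted p = 0.0263). Between naive and TEM cells, where 29.9% of all genes were higher in YFP- and 24.7% in YFP+ TEM cells, 16 of 20 factors were higher in TEM in each fraction and 2 were lower in YFP- and 0 in YFP+ cells. Of 14 other cytokines 9 were higher and 1 lower in each fraction, and of 16 receptor chains 8 were higher and 4 lower. *Csf2*, *Il22*, *Areg* and *Il17rc* had under 5 normalized counts in every naive library and reached the filter only through TEM libraries. Any call of these genes here follows in part from the filter, so the counts are a description only. Of the 13 immediate early genes 5 were higher in YFP- and 4 in YFP+ cells, shares near those of all genes, and 1 was lower in each. With the replicate block 9 and 7 of these 13 were higher. *Tbx21*, for example, had 33.3 ± 4.22 normalized counts in YFP- naive and 2419 ± 248 in YFP- TEM cells.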

How the data were processed

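The deposited table gives normalized counts, a signal made by the authors from read counts per gene and the DESeq2 size factor of each library. Reads had been mapped to mm10 with DRAGEN and counted with Rsubread. The annotation, strand setting and versions are not given in the sources used here. Whole reads were recovered from 100% of values (tolerance 0.0001 reads), and 0 columns were left unused. Entrez identifiers were matched to RefSeq on GRCm38.p6, which left 774 of 17523 genes without a symbol. Transcript lengths came from GENCODE M21.

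Values were transformed as log2(normalized count + 1) and fitted with limma 3.58.1 (R 4.3.3) in 1 model of 4 group means over all 12 libraries, with a variance trend and 8 residual degrees of freedom. A filter of 5 normalized counts in 3 or more libraries left 15587 genes. Calls required a p of 0.05 or less after Benjamini-Hochberg adjustment. All p-values are two-sided. The smallest exact permutation p for 3 libraries against 3 is 0.1, so calls rest on the variance shared across genes. Counting intervals are exact at 95%, and the floor was 3 reads in every library of a group. The scripts were tested on simulated data. Named were all members, the called genes of each list in TEM cells (at most 4 by adjusted p) and marker genes beside members. Some items under this rule are not reported here. The members and lists were chosen with earlier results of these data known.

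The study sorted cells from 3 mice, and the labels number the libraries of each group 1 to 3. After removal of group means, libraries of the same number correlated between YFP fractions, with r from 0.180 to 0.356 in TEM and from 0.306 to 0.491 in naive cells. Ratios of YFP+ to YFP- cells were therefore taken by number. The main fit did not use the number, which entered as a block only in alternative fits. Between naive and TEM cells r was 0.137 to 0.232 in YFP- and -0.020 to 0.204 in YFP+ cells. As alternatives the prior count was set to 0.1 or 5, the filter was dropped, and the others were TMM factors, quantile normalization, the replicate number as a block, edgeR 4.0.16 and DESeq2 1.42.0 on the recovered reads, and leaving out each library. Added after seeing the data were edgeR and DESeq2 with the block and leaving out 1 replicate number from all groups.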

Additional observations from a re-analysis of the deposited data

How the results depend on the processing

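The count of members called between YFP+ and YFP- TEM cells was 0 and became 1 (*Il4*) with a prior count of 5, with quantile normalization, with DESeq2 and with DESeq2 with the replicate block. It stayed at 0 with the limma block, with edgeR with or without the block, and without each library in turn (0 to 0). In naive cells and in the interaction the count was 0 in every fit run, the paired ones included, and in both comparisons of TEM with naive cells it was 7 with the block and 6 to 8 in every fit. No log2 fold change that changed sign was called in the fit where it did so, and the cause was not tested. A large change was that of the interaction of *Il4*, with 0 to 3 reads per naive group: 0.90 in limma, -0.063 with a prior count of 0.1, -1.63 and -0.75 with edgeR and DESeq2, and -1.53 and -0.54 with the block in each. Those of *Il2* in naive cells (0.16) and in the interaction (-0.16) turned to -0.23 and 0.60 with quantile normalization. For *Il2* in TEM cells (-0.0013) they were 0.00060 with a prior count of 5, 0.031 with TMM factors, 0.37 with quantile normalization, 0.12 with edgeR, 0.090 with DESeq2, 0.086 and 0.070 with the block in edgeR and DESeq2, and 0.20 and 0.055 without the libraries numbered 1 and 2, with -0.37 to 0.20 without 1 library. For *Il10* (-0.19) they were 0.056 with quantile normalization, 0.34 with edgeR, 0.31 with DESeq2 and 0.20 and 0.040 without the libraries numbered 1 and 3, with -1.07 to 0.40 without 1 library. For *Il21* (0.09) the value was -0.24 without those numbered 2 and -0.94 to 0.80 without 1 library, and for *Tnf* (-0.23) it was -0.43 to 0.068 without 1 library. *Il17f* in YFP- cells (-0.24, TEM against naive) was at 0.52 and 0.11 without the libraries numbered 1 and 2, and at -0.84 to 0.32 without 1 library. The interaction of *Tnf* (0.17) was -0.039 without the libraries numbered 2 and -0.23 to 0.52 without 1 library. *Il13* (adjusted p = 0.0106 in YFP- and 0.00308 in YFP+ cells, limma) lost its call in YFP- cells with a prior count of 5, quantile normalization, DESeq2, DESeq2 with the block or without the libraries numbered 3 (0.0605, 0.565, 0.0575, 0.0876 and 0.103), and in YFP+ cells with quantile normalization or without those numbered 3 (0.0641 and 0.0611). Quantile normalization moved the median of all genes to -0.20 and -0.14 in TEM against naive YFP- and YFP+ cells, and *Il17f* was then called lower in YFP- TEM cells (log2 fold change -1.84, adjusted p = 0.0483). Depth limits *Il5*, *Il13*, *Il17a* and *Il17f*, which had at most 23 reads in any library.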
